A study of Mus musculus with 8 samples.

Results

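The genes examined here encode the core transcription factors of the early heart: the zinc finger proteins GATA4, GATA5 and GATA6, the basic helix-loop-helix proteins HAND1 and HAND2, the homeodomain protein NKX2-5, the MADS-box proteins MEF2A, MEF2C and MEF2D, and SMARCD3 (BAF60c), a heart-enriched subunit of the BAF chromatin remodelling complex. They were chosen by name. All 10 were found among the 55487 gene identifiers of the deposited table, and all 10 passed the filter on low counts. RNA came from mouse E14-Tg2a embryonic stem cells on day 6 of serum-free differentiation towards precardiac mesoderm. There were 4 libraries of the parental line, labelled wild type, and 4 of its derivative 4D, labelled Tbx1-/-, and the design text calls the 4 of each line biological replicates. All mutant libraries came from that single line, and loss of Tbx1 cannot be told apart from other features of that line. Tbx1 encodes a T-box factor of the pharyngeal and second heart field progenitors.

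These factors form a mutually reinforcing network. GATA factors bind GATA elements, HAND factors pair with E proteins on E-boxes, NKX2-5 binds its own homeodomain sites, MEF2 factors bind A/T-rich elements of muscle genes, and SMARCD3 helps bring BAF complexes to cardiac enhancers. In the embryo the heart fields differ in HAND use, with HAND2 prominent in the second heart field and right ventricle and HAND1 in the first heart field, left ventricle and extraembryonic mesoderm. GATA4, GATA5 and GATA6 overlap in heart and endoderm, and MEF2C and NKX2-5 rise as progenitors commit to the muscle fate.

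QuantSeq, the assay used, counts transcript 3′ ends, so a gene's level does not grow with its length. Levels are CPM, counts scaled to library size with TMM factors. Depth ran from 3803561 counts in mutant library 4, the lowest, to 6293907 in parental library 3. Mutant library 4 stood apart: its log2 CPM correlated with those of the other libraries at 0.857 to 0.881 across genes, which are not independent replicates, against 0.920 to 0.944 among the other 7. Tbx1 itself had 39, 65, 38 and 22 counts in parental libraries 1 to 4 and 3, 0, 1 and 0 in mutant libraries 1 to 4, as the labels have it. Cardiomyocyte, endoderm, blood, smooth muscle, neural and pluripotency markers were all measured, and no listed marker was at 0 in every library. Summed smooth muscle markers were at 250.5 to 1251 CPM in the parental line and 393 to 537 CPM in the mutant line, neural markers at 39.8 to 45.8 against 28.1 to 44.7 CPM, and pluripotency markers at 27.6 to 46.9 against 28.3 to 42.1 CPM. In these 3 lists 6 of 7, 4 of 8 and 5 of 7 genes passed the filter and were tested. Of the tested genes 0 were called by edgeR, and 1, 0 and 1 had an unadjusted p under 0.05. Over all tested genes 1.42% were called and 11.9% had an unadjusted p under 0.05. The cardiac hormone gene Nppa, a defining marker of chamber myocardium, had 4 and 1 counts in parental libraries 1 and 2 and 0 in the other 6.

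Close relatives among these factors differed in direction. Gata6 rose in the mutant line, 1.65-fold in mean level. Hand2 was higher and Hand1 lower in every mutant library than in every parental one, although neither passed the threshold over all genes. The other 7 genes had overlapping libraries. An adjusted p under 0.05 (edgeR quasi-likelihood test, Benjamini-Hochberg over 13280 genes) was reached by 1 of the 10, with 1 higher and 0 lower, where 1.42% of all tested genes reached it (0.745% higher, 0.67% lower). Parental and mutant libraries had separate ranges for 3 of the 10, with 2 higher and 1 lower, against 7.52% of all tested genes (3.49% higher, 4.04% lower). Log2 fold changes were positive for 3 factors and negative for 7, with a median of -0.51 beside 0.00 for all tested genes. Without parental library 1 the median was -0.24, with the same split of signs. Since a bulk library averages over cells, fewer cells of a type and less RNA per cell cannot be told apart for any of these genes.

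**Figure D1:**
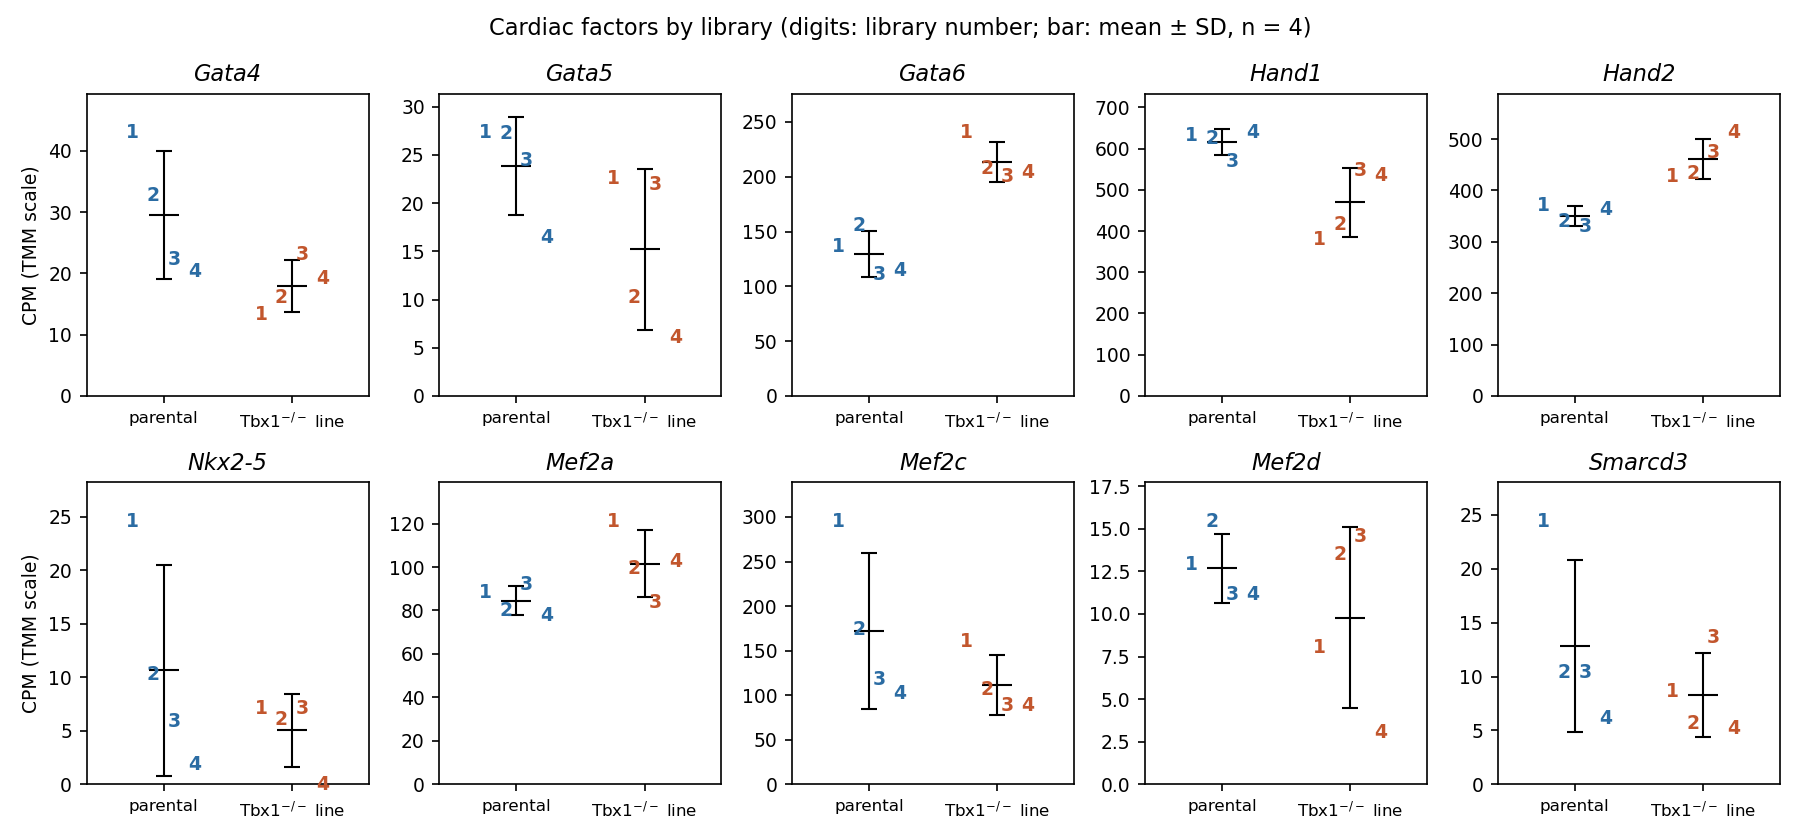
CPM of the 10 cardiac factors in each library, with the parental line in blue, the Tbx1-/- line in orange, digits for the library number and black bars for mean ± SD (n = 4). The lines separate for Gata6, Hand1 and Hand2, while Nkx2-5, Mef2c and Smarcd3 spread most within the parental line.

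The order of levels was set by the HAND genes in both lines. In parental cells Hand1 was the highest at 615 ± 32.1 CPM (SD, n = 4) and Hand2 followed at 351 ± 19.5, with no shared range. Mef2c at 172 ± 87.7 and Gata6 at 129 ± 21 overlapped each other. Mef2a at 84.6 ± 6.68 lay below them, and then came Gata4, Gata5, Smarcd3, Mef2d and Nkx2-5, each overlapping its neighbour. In the mutant line the ranges of Hand1 (469 ± 84.7) and Hand2 (462 ± 39.1) overlapped. Gata6 at 213 ± 18.2 was above Mef2c at 111 ± 33.6 without overlap. Nkx2-5 was the lowest of the 10 in both lines, at 10.6 ± 9.87 and 5.06 ± 3.40 CPM.

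Gata6 (ENSMUSG00000005836.10, chromosome 18, 11052064 to 11085635, plus strand, GRCm38) encodes the GATA factor shared by second heart field, smooth muscle and endoderm lineages. Its level was 137, 156, 110.4 and 114 CPM in parental libraries 1 to 4 and 239.9, 208, 200.2 and 204 CPM in mutant libraries 1 to 4. Every mutant library was above every parental library. This gave a log2 fold change of 0.72 ± 0.13 (SE), and edgeR's adjusted p was 0.00516. It passed in each of 14 alternative fits, the highest adjusted p being 0.0366, and without mutant library 4 the log2 fold change was 0.74.

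Gata4 (ENSMUSG00000021944.15, chromosome 14, 63198922 to 63271692, minus strand), the GATA factor most used as a marker of cardiac mesoderm, had 42.9, 32.7, 22.3 and 20.2 CPM in parental and 13.3, 16.1, 23.1 and 19.2 CPM in mutant libraries. Parental libraries 3 and 4 lay inside the mutant range. Its log2 fold change of -0.72 ± 0.27 did not pass (edgeR adjusted p = 0.266). Gata5 (ENSMUSG00000015627.5, chromosome 2, 180325133 to 180334699, minus strand), a GATA gene of endocardial and epicardial precursors, had 27.3, 27.3, 24.4 and 16.4 CPM in parental and 22.5, 10.2, 22.0 and 6.05 CPM in mutant libraries. The lines overlapped, and its log2 fold change was -0.63 ± 0.34 (edgeR adjusted p = 0.503), or -0.38 without mutant library 4. That library had the lowest Gata5 of all 8.

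Within each library the share of Gata6 among the counts of the 3 GATA genes does not depend on scaling between libraries. It was 66.1% (95% exact Clopper-Pearson interval 63.2 to 68.8), 72.2% (69.6 to 74.7), 70.3% (67.3 to 73.1) and 75.7% (72.4 to 78.8) in parental libraries 1 to 4. In the mutant libraries, in the same order, it was 87.0% (85.3 to 88.6), 88.7% (86.7 to 90.6), 81.6% (79.5 to 83.7) and 89.0% (86.7 to 91.0). The mean share was 71.1 ± 4.02% in parental and 86.6 ± 3.42% in mutant libraries (SD, n = 4), without overlap. The share of Gata4 ran from 13.4% to 20.7% in parental and from 4.81% to 9.41% in mutant libraries. A share of Gata4 falls when Gata6 rises, so these ranges do not show by themselves that Gata4 RNA fell. The summed level of the 3 genes was 151 to 215 CPM in parental and 229.6 to 276 CPM in mutant libraries.

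Gata6 is also an endoderm gene, and the study's cells could hold endoderm and blood. Of 14 endoderm markers 11 were tested, and 0 were called higher and 2 lower, where 1.42% of all tested genes were called (0.745% higher, 0.67% lower). The 2 were Foxa2 and Krt18, with log2 fold changes of -1.93 ± 0.42 and -0.76 ± 0.15 (edgeR adjusted p = 0.0254 and 0.0133). Leaving out 1 library ended the Krt18 call for parental library 1, parental library 2 and mutant library 3 (adjusted p = 0.0626, 0.0692 and 0.0535). It ended the Foxa2 call for each parental library and for mutant libraries 2 and 3 (adjusted p = 0.0525 to 0.111). Sox17, a defining endoderm factor, had 0.42 ± 0.25 (edgeR adjusted p = 0.553). The summed endoderm markers were 363 to 677 CPM in parental and 302 to 397 CPM in mutant libraries. Of the 14 endothelial and blood markers, all tested, 3 were called higher and 0 lower, or 21.4% beside the same 1.42%. The 3 were the globins Hba-x, Hbb-bh1 and Hbb-y. The summed level of all 14 endothelial and blood markers was 522 to 827 CPM in parental and 1113 to 1804 CPM in mutant libraries. This sum includes the 3 globins. Their mean levels rose from 31.2 to 242 CPM (Hba-x), 106 to 427 CPM (Hbb-bh1) and 1.96 to 27.7 CPM (Hbb-y). The other markers were not called, and a sum without the globins was not computed. Over all 14, 12 log2 fold changes were positive and 2 negative. The part of endoderm or blood cells in the rise of Gata6 was not tested.

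Hand2 rivalled Hand1 in the mutant line. Hand2 (ENSMUSG00000038193.4, chromosome 8, 57320983 to 57324633, plus strand) encodes a regulator of the second heart field and right ventricle. It had 371, 339, 329.7 and 363 CPM in parental libraries 1 to 4 and 428, 433, 473 and 512 CPM in mutant libraries 1 to 4. The lowest mutant library was above the highest parental one. The log2 fold change of 0.40 ± 0.10 missed the threshold (edgeR adjusted p = 0.0513). It passed in 3 of 14 alternatives, at 0.0412 with library size alone, 0.00277 with DESeq2 and 0.0242 with limma-voom. The highest adjusted p of an alternative was 0.231, and without mutant library 4 the log2 fold change was 0.34 with an edgeR adjusted p of 0.121.

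Hand1 (ENSMUSG00000037335.13, chromosome 11, 57828705 to 57832818, minus strand), which acts in the first heart field, left ventricle and extraembryonic mesoderm, had 631, 625, 568 and 638 CPM in parental libraries. Mutant libraries 1 to 4 had 379, 415, 548 and 535 CPM. The lines did not overlap, but mutant libraries 3 and 4 came close to parental library 3. The log2 fold change was -0.39 ± 0.12 with an edgeR adjusted p of 0.115, and it passed in 3 of 14 alternatives, at 0.0233 without the low-count filter, 0.0348 with DESeq2 and 0.0415 with limma-voom. Without mutant library 4 it was -0.46 with an edgeR adjusted p of 0.0565.

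The share of Hand2 in the summed HAND counts was 37.0% (95% exact interval 35.8 to 38.3), 35.2% (33.9 to 36.5), 36.7% (35.5 to 38.0) and 36.3% (34.9 to 37.7) in parental libraries 1 to 4. In the mutant libraries, in the same order, it was 53.0% (51.6 to 54.5), 51.1% (49.5 to 52.6), 46.3% (45.0 to 47.6) and 48.9% (47.3 to 50.5). The shares lay in separate ranges, with means of 36.3 ± 0.820% and 49.8 ± 2.88% (SD, n = 4), and 50.1% in the mutant line without library 4. Every mutant library had more Hand2 and less Hand1 than every parental one. Separate shares had to follow from that, so they add no support of their own. The summed level of both genes overlapped, at 966 ± 49.0 CPM in the parental line against 931 ± 121 CPM.

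**Figure D2:**
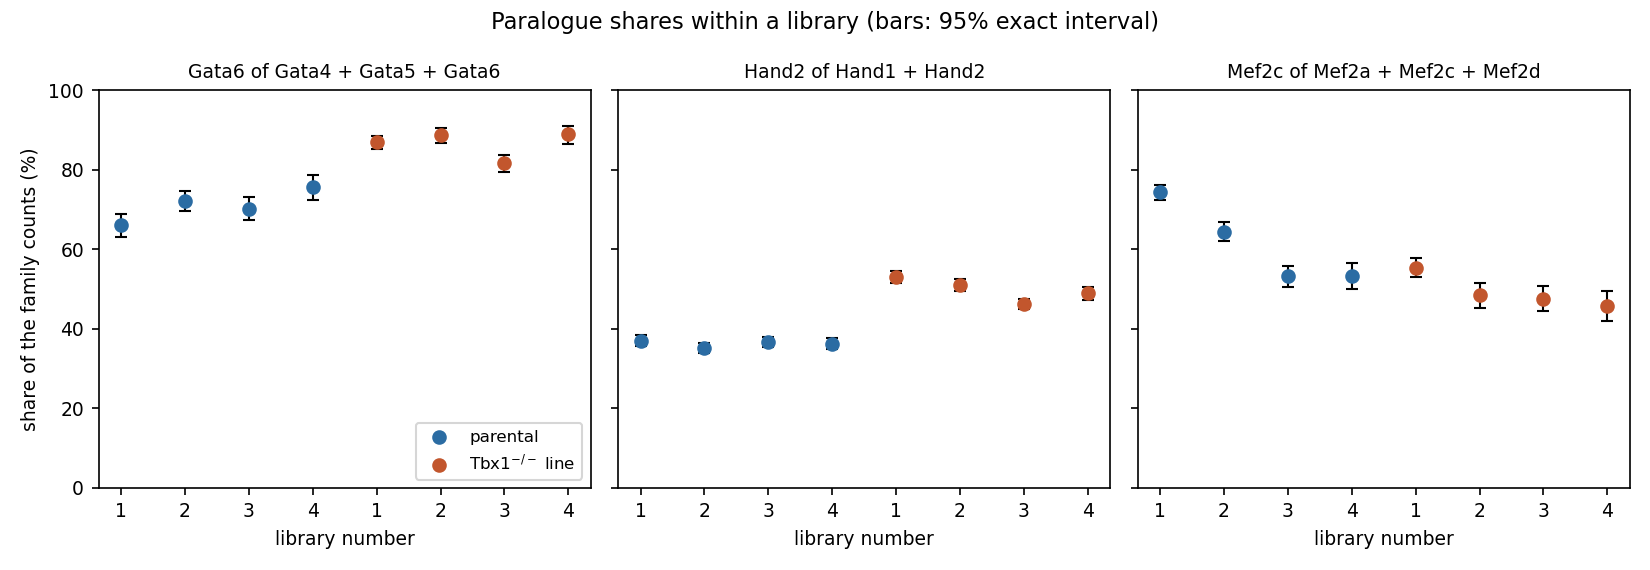
Share of Gata6, Hand2 and Mef2c in the counts of their family (%), by library, with parental libraries in blue, mutant libraries in orange and 95% exact intervals that cover counting error only. The Gata6 and Hand2 shares of the lines do not overlap, whereas the lowest parental Mef2c share (53.2%) lies below the highest mutant one (55.4%).

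The Hand2 locus carries a long antisense transcript, Hand2os1 (Upperhand), known for its part in Hand2 regulation in the heart. It was examined after its values were seen, as one of the genes annotated to overlap a member. Hand2os1 (ENSMUSG00000100510.7) runs on the minus strand of chromosome 8 from 57324233 down to 57281117, so its annotated 3′ end lies upstream of Hand2 and outside it. It had 94.0, 92.8, 87.8 and 89.8 CPM in parental libraries and 136, 132, 182 and 154 CPM in mutant libraries. The parental values were close together, and every mutant library was higher. Hand2os1 rose with a log2 fold change of 0.73 ± 0.13 (edgeR adjusted p = 0.00501), passed in each of 14 alternatives, and had 0.72 without mutant library 4. For each 100 Hand2 counts there were 25.3, 27.3, 26.6 and 24.7 Hand2os1 counts in parental and 31.7, 30.4, 38.6 and 30.1 in mutant libraries. Counting by strand is known only from the table's name, which says forward, and unstranded counts could not separate overlapping genes. At Gata6, the overlapping antisense gene 1010001N08Rik had a log2 fold change of 1.06 ± 0.37 with overlapping libraries (edgeR adjusted p = 0.215).

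Promoter sequence is shown for 3 members that stand for the patterns described: Hand2, with non-overlapping libraries, and Nkx2-5 and Smarcd3, which spread widely within the parental line. RefSeq start sites on GRCm38.p6 were in hand for 7 of the 10 members, with 9 windows of 250 bases before a start. Capitals mark matches, on either strand, to GATA elements (AGATAA with its variant AGATAG, or the form TGATAA with its variant TGATAG), T-box elements (GGTGTGA), NKX2-5 elements (TNAAGTG), E-boxes (CANNTG) or the MEF2 consensus, and no match overlapped another. The Hand2 window is chr8:57320733-57320982 (plus strand) and lies inside the annotated span of Hand2os1, the Nkx2-5 window is chr17:26841566-26841815 (minus strand), and the Smarcd3 window is chr5:24602003-24602252 (minus strand).
Hand2: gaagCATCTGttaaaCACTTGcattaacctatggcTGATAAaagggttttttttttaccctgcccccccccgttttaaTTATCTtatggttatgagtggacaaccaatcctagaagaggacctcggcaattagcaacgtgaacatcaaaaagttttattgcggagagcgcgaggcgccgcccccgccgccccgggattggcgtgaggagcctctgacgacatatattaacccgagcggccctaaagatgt
Nkx2-5: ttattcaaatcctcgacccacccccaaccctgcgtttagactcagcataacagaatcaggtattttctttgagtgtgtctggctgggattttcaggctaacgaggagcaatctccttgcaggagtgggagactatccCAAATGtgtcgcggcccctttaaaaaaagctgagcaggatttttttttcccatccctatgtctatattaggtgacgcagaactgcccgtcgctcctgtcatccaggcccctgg
Smarcd3: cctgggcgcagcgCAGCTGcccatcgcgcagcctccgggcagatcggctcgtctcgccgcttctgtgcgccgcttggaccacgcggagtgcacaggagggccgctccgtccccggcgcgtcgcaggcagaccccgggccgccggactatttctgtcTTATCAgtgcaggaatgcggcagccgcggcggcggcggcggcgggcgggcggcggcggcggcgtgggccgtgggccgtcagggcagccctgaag
The Hand2 window held 2 GATA matches, TGATAA at -215 to -210 and TTATCT at -172 to -167 from the start, and 2 E-boxes, CATCTG and CACTTG. Smarcd3 had 1 GATA match, TTATCA, and 1 E-box, CAGCTG, while Nkx2-5 had 1 E-box, CAAATG. The windows not printed, of Gata5, Mef2a, Mef2c and Mef2d, held no GATA match. E-boxes lay in the Gata5 window and in some of the Mef2c windows, and none in those of Mef2a and Mef2d. Among 32841 mouse promoter windows of the same length, 26.5% held a GATA match and 66.2% an E-box. The T-box letters were in 3.33% of all windows, the NKX2-5 letters in 10.1% and the MEF2 consensus in 2.92%, and none of the 9 windows of the members held any of them. A match is a description of the letters and not a bound site.

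Nkx2-5 (ENSMUSG00000015579.5, chromosome 17, 26838664 to 26845009, minus strand), the homeodomain factor of committed cardiac progenitors, had 24.5, 10.2, 5.90 and 1.90 CPM in parental libraries 1 to 4. Mutant libraries 1 to 4 had 7.06, 6.10, 7.08 and 0 CPM. Mutant libraries 1 to 3 were alike and lay inside the parental range. The counts were few, at 135, 57, 37 and 9 in parental and 42, 28, 39 and 0 in mutant libraries, and 0 counts in mutant library 4 allow up to 0.825 CPM (3 counts). The log2 fold change of -1.04 ± 0.72 did not pass (edgeR adjusted p = 0.632). Without parental library 1 it was -0.24, and without mutant library 4 it was -0.66.

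Mef2c (ENSMUSG00000005583.16, chromosome 13, 83504034 to 83667080, plus strand), the MEF2 gene needed for second heart field and early muscle development, had 295, 174, 117 and 102 CPM in parental libraries. Mutant libraries had 160.1, 106, 89.0 and 89.1 CPM. Parental library 1 was far above all others, and the lines overlapped. The log2 fold change was -0.63 ± 0.26 (edgeR adjusted p = 0.331), and -0.24 without parental library 1. Of the alternatives, only the fit without the low-count filter called Mef2c lower (adjusted p = 0.000525). Smarcd3 (ENSMUSG00000028949.13, chromosome 5, 24590818 to 24624411, minus strand) had 24.4, 10.4, 10.4 and 6.11 CPM in parental and 8.57, 5.67, 13.6 and 5.22 CPM in mutant libraries. Parental library 1 was again the highest, and the log2 fold change of -0.62 ± 0.44 (edgeR adjusted p = 0.635) became -0.11 without it.

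Mef2a varied less within each line than Mef2c, Mef2d and Smarcd3 did. Mef2a (ENSMUSG00000030557.17, chromosome 7, 67231163 to 67372858, minus strand), a broadly expressed member, had 88.4, 80.2, 91.9 and 77.8 CPM in parental and 121, 99.4, 83.6 and 103 CPM in mutant libraries. Mutant library 3 was the only mutant library inside the parental range, and the log2 fold change was 0.26 ± 0.14 (edgeR adjusted p = 0.482). Mef2d (ENSMUSG00000001419.17, chromosome 3, 88142372 to 88172086, plus strand) had 12.9, 15.4, 11.2 and 11.2 CPM in parental and 8.06, 13.5, 14.5 and 3.02 CPM in mutant libraries, with a log2 fold change of -0.36 ± 0.40 (edgeR adjusted p = 0.787). Without mutant library 4, which had the lowest Mef2d, the value was -0.08. Mef2c took 74.4%, 64.5%, 53.2% and 53.3% of the MEF2 counts in parental libraries 1 to 4 and 55.4%, 48.5%, 47.6% and 45.8% in mutant libraries 1 to 4.

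**Figure D3:**
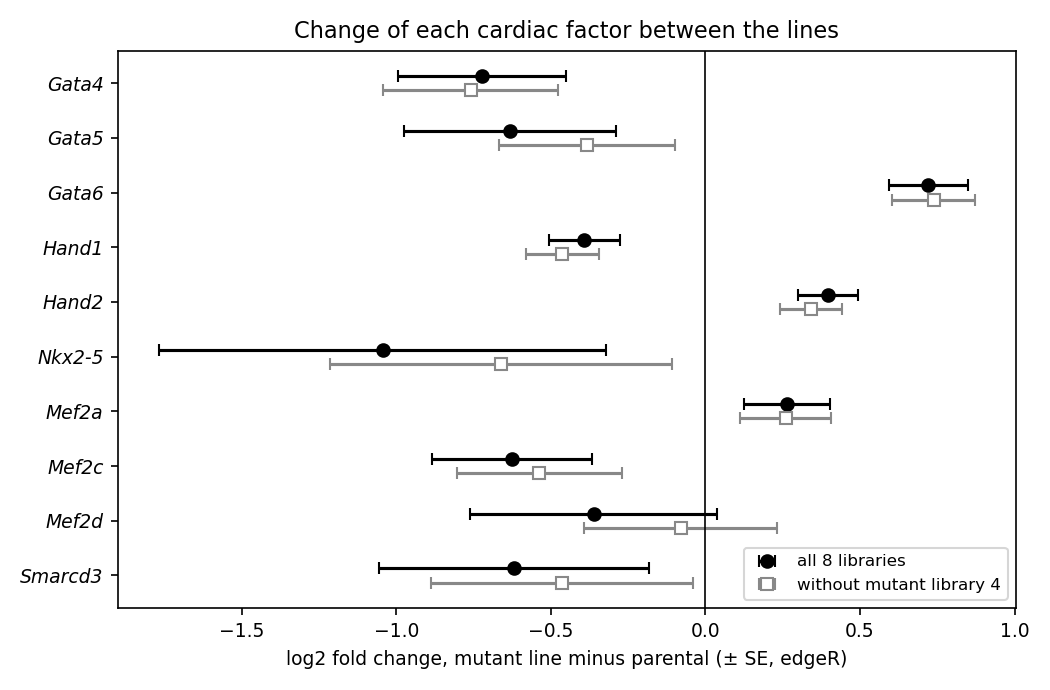
Log2 fold change of each cardiac factor, mutant line minus parental, with its SE, from all 8 libraries (black circles) and without mutant library 4 (open grey squares). Gata6 and Hand2 stay positive and Hand1 and Gata4 negative in both, and Nkx2-5 moves from -1.04 to -0.66.

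Several of these genes were high in the libraries with more cardiomyocyte RNA. The summed level of 11 cardiomyocyte markers was 3666, 1988, 906 and 624 CPM in parental libraries 1 to 4 and 822, 782, 968 and 114 CPM in mutant libraries 1 to 4. Parental library 1 was thus the highest and mutant library 4 the lowest of all 8. Of the 11 markers 10 were tested, with 0 called higher, 0 lower and 8 at an unadjusted p under 0.05. DESeq2 and limma-voom each called 0 as well, while 9 of 11 were called lower without the low-count filter and 2 of 10 without parental library 4. Over all tested genes 11.9% had an unadjusted p under 0.05.

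The relation to this sum was computed over the 8 libraries for the 7 members whose lines overlap, on the log2 scale, with two-sided exact permutation tests adjusted over 7 relations. Gata6, Hand1 and Hand2 fall into clusters by line, so no pooled value was computed for them. For the 7 tested members the permutations ran across both lines, so a difference between the lines can add to r and rho. A relation within a line was not tested, and the relation was chosen after the data were seen. For Nkx2-5 Pearson's r was 0.967 (exact permutation p = 0.000174, adjusted 0.00122) and Spearman's rho 0.929 (exact permutation p = 0.00223, adjusted 0.00781). Gata5 had an r of 0.863 (exact permutation p = 0.00181, adjusted 0.00634) and a rho of 0.905 (p = 0.00456, adjusted 0.0106). Smarcd3 had an r of 0.800 (exact permutation p = 0.0205, adjusted 0.0368) and a rho of 0.952 (p = 0.00114, adjusted 0.00781). Mef2d had an r of 0.842 (exact permutation p = 0.0210, adjusted 0.0368) and a rho of 0.690 (p = 0.0694, adjusted 0.0972).

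Mef2c had an r of 0.771 (exact permutation p = 0.0355, adjusted 0.0497) and a rho of 0.619 (p = 0.115, adjusted 0.134). Gata4 had an r of 0.634 (exact permutation p = 0.0928, adjusted 0.108) and a rho of 0.786 (p = 0.0279, adjusted 0.0489). For Mef2a, r was -0.36 (exact permutation p = 0.377, adjusted 0.377) and rho -0.33 (p = 0.428, adjusted 0.428). Without parental library 1 and mutant library 4, the 2 farthest from the median of the marker sum, r was 0.761 for Nkx2-5, 0.743 for Gata4, 0.612 for Mef2c, 0.589 for Gata5, 0.549 for Mef2d and 0.546 for Smarcd3. None of these passed over the 6 libraries left (exact permutation p = 0.0944 to 0.271, n = 6). The value rose for Gata4 and fell for the other 5. Both axes come from the same libraries and share their scaling.

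**Figure D4:**
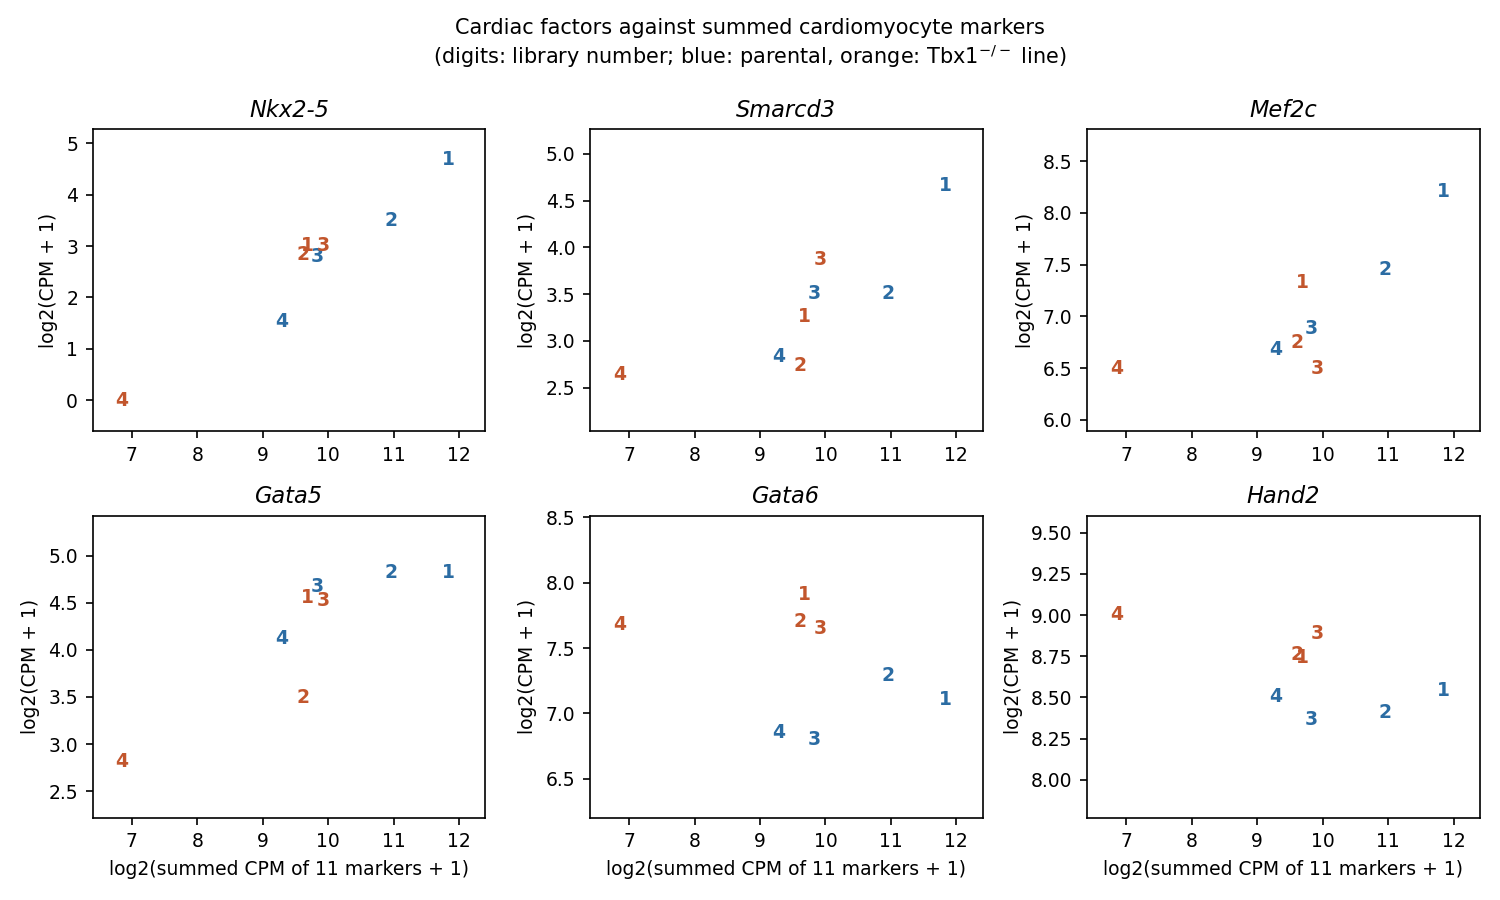
Log2(CPM + 1) of 6 cardiac factors against log2(summed CPM + 1) of 11 cardiomyocyte markers, with 1 digit per library (its number), blue for parental and orange for the Tbx1-/- line. Nkx2-5 follows the marker sum across both lines, from 0 CPM in mutant library 4 to 24.5 CPM in parental library 1. Gata6 and Hand2 separate by line, and their relation to the marker sum was not tested.

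The genes most like 3 of the members were found among 13279 others by the root mean square difference of centred log2 CPM over the 8 libraries. For Gata6 they were Psap, Eda2r and Fyn, at 0.134, 0.137 and 0.142. For Hand2 they were Espl1, Usp22 and Pbx3, at 0.0565, 0.0740 and 0.0756. Pbx3, a TALE homeodomain gene, had 129.8, 132, 134 and 138 CPM in parental and 163, 161, 199.6 and 193 CPM in mutant libraries. For Nkx2-5 they were the long noncoding RNA 5430431A17Rik, the atrial light chain gene Myl4 and Asb2, at 0.247, 0.320 and 0.343. These distances describe the same 8 libraries and carry no test.

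Among partner factors of the network, Zfpm2 rose in the mutant line. Of 19 partner genes 18 were tested, 2 were called higher and 0 lower, or 11.1% beside 1.42% of all tested genes, and the median log2 fold change was 0.21. That median was 0.06 without mutant library 3, 0.13 without parental library 3 and 0.31 without parental library 1. Zfpm2, which encodes FOG2, the cofactor that binds the N-terminal zinc finger of GATA4, rose from 13.5, 12, 12.8 and 16.6 CPM in parental to 53.6, 22.7, 25.2 and 41.2 CPM in mutant libraries. Its log2 fold change was 1.38 ± 0.28 (edgeR adjusted p = 0.0126), and the call was lost without parental library 2, parental library 3 or mutant library 1 (adjusted p = 0.0692, 0.0587 and 0.0747).

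Isl1, the LIM-homeodomain gene of second heart field progenitors, had 76.2, 76.8, 69.7 and 73.7 CPM in parental and 34.6, 54.5, 34.1 and 64.9 CPM in mutant libraries. The lines did not overlap, and the log2 fold change of -0.67 ± 0.19 did not pass (edgeR adjusted p = 0.108). It passed in 4 of 14 alternatives: DESeq2, limma-voom, no low-count filter, and without mutant library 4 (-0.86, edgeR adjusted p = 0.0173). The T-box partners Tbx5 and Tbx20 had log2 fold changes of -0.86 ± 0.70 and 0.58 ± 0.21 (edgeR adjusted p = 0.702 and 0.246). Myocd, the SRF coactivator of cardiac and smooth muscle, lay outside the naming rule and was chosen with its values known. It had 73.5, 46.8, 28.9 and 16.4 CPM in parental and 12.9, 15.3, 16.9 and 1.92 CPM in mutant libraries, a log2 fold change of -1.79 ± 0.45 (edgeR adjusted p = 0.057). Without mutant library 4 its adjusted p was 0.0448, and without parental library 4 it was 0.0238.

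Among relatives of the members and the partners and inhibitors of bHLH proteins, 14 of 17 were tested, with 1 called higher and 2 lower. That was 21.4% beside 1.42% of all tested genes, and the median log2 fold change was 0.14 beside 0.00. Twist1, which can replace E proteins as a dimer partner of HAND2, rose from 70.0, 78.9, 101 and 115 CPM to 212, 158, 232 and 291 CPM (log2 fold change 1.29 ± 0.18, edgeR adjusted p = 0.000551). Id2, a dominant-negative HLH protein that sequesters E proteins, fell from 572, 633, 573 and 623 CPM to 305, 474, 436 and 370.3 CPM (log2 fold change -0.60 ± 0.12, edgeR adjusted p = 0.0124), a call lost without parental library 2 (0.0692). Nkx2-3, a pharyngeal and visceral relative of Nkx2-5, fell from 26.5, 18.5, 20.6 and 18.1 CPM to 7.06, 9.81, 3.09 and 4.95 CPM. Its log2 fold change was -1.75 ± 0.35 (edgeR adjusted p = 0.0124), and the call was lost without parental library 1 (0.0593).

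**Figure D5:**
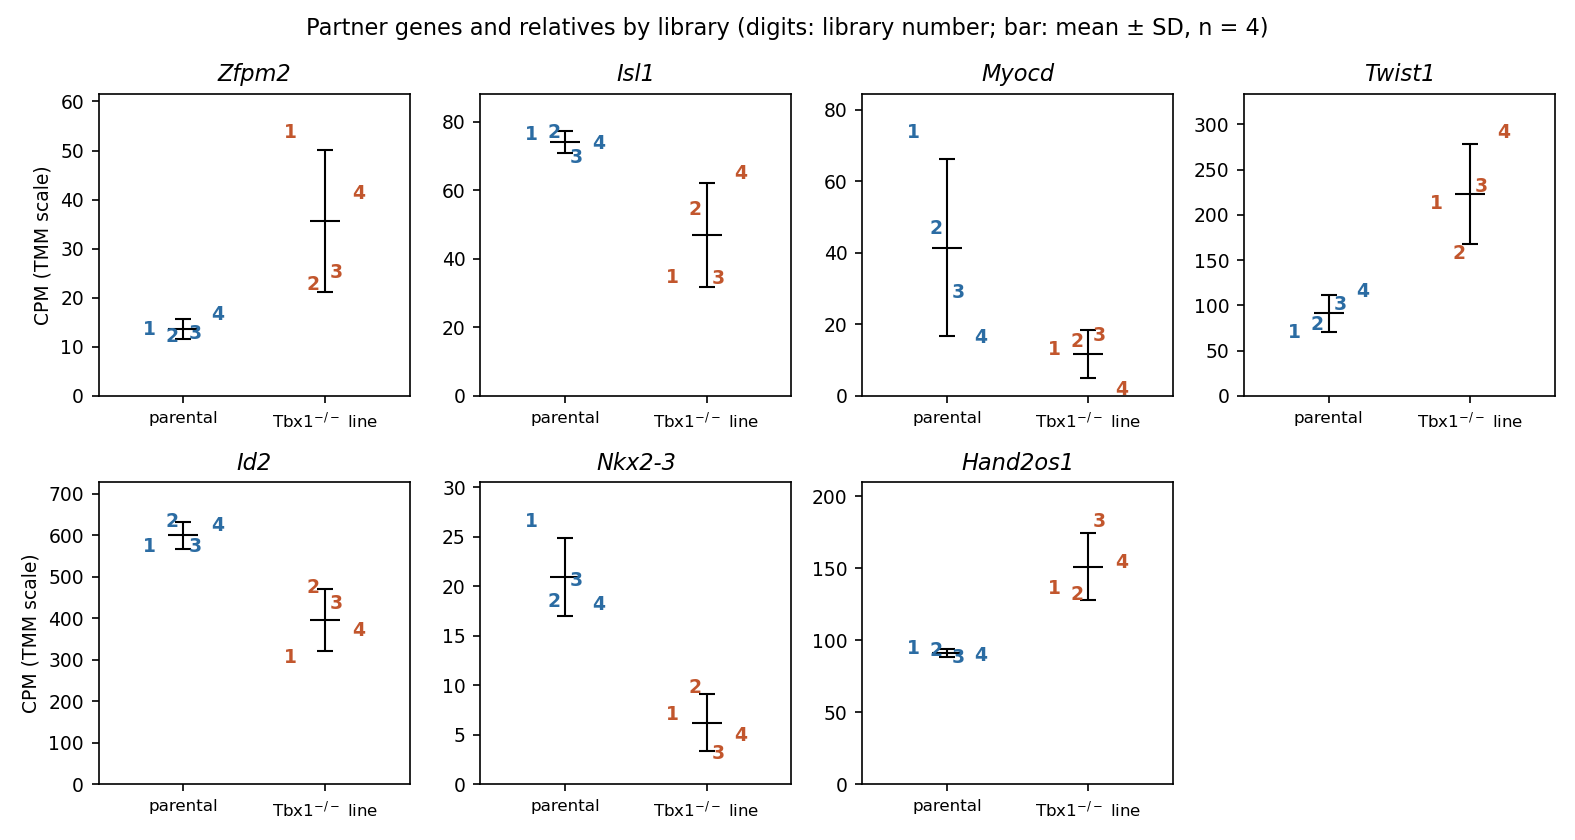
CPM of partner factors, relatives and the antisense gene Hand2os1 in each library, with parental in blue, the Tbx1-/- line in orange, digits for the library number and bars for mean ± SD (n = 4). The lines separate in every panel except Myocd, where parental library 4 (16.4 CPM) lies below mutant library 3 (16.9 CPM).

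The chromatin and signalling partners showed no called gene. Of 24 other BAF subunits 23 were tested, 0 were called by edgeR, DESeq2 or limma-voom, 2 had an unadjusted p under 0.05 (11.9% of all tested genes did), and log2 fold changes ran from -0.45 to 0.29 with a median of 0.00. Smarcc2, a core scaffold subunit, had the smallest p, with 0.29 ± 0.13 (edgeR adjusted p = 0.377). All 12 regulators of MEF2 (class IIa histone deacetylases, kinases and calcineurin subunits) were tested, 0 were called by any of the 3 tools and 0 had an unadjusted p under 0.05. Hdac7, which binds and represses MEF2, was nearest with 0.28 ± 0.14 (edgeR adjusted p = 0.435).

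Muscle genes that the network is known to activate pointed one way without passing. Of 29 target genes 23 were tested, 0 were called higher and 0 lower, 11 had an unadjusted p under 0.05, beside 11.9% of all tested genes, and all 23 log2 fold changes were negative, with a median of -1.05 beside 0.00 for all tested genes. DESeq2 called 1 and limma-voom 0. Without parental library 1, 17 of 23 were negative and the median was -0.40, and without mutant library 4, 21 of 23 were negative with a median of -0.80. Nebl, which encodes the Z-disc protein nebulette, was closest, with -1.27 ± 0.31 (edgeR adjusted p = 0.0506). It passed in 6 of 14 alternatives, including without parental library 3 or 4 (0.0395 and 0.0396). The others were RLE factors, no low-count filter, DESeq2 and the replicate number as a block. Tnnt2, cardiac troponin T, had 411, 276, 129 and 84.9 CPM in parental and 119.9, 115, 113 and 30.0 CPM in mutant libraries, and a log2 fold change of -1.25 ± 0.39 (edgeR adjusted p = 0.147). Actc1 and Myl7, cardiac actin and the atrial light chain, had -1.18 ± 0.60 and -1.65 ± 0.56 (edgeR adjusted p = 0.463 and 0.199). Without parental library 1, Actc1, Myl7 and Tnnt2 had -0.40, -0.94 and -0.79. Actc1 passed in 1, Myl7 in 2 and Tnnt2 in 3 of 14 alternatives. For Tnnt2 these included the fit without parental library 4 (adjusted p = 0.0454). This list shares 10 tested genes with the cardiomyocyte markers, whose values by library are given above. The 13 tested target genes outside those markers were all negative, with a median of -0.57. Of these, 0 were called and 3 had an unadjusted p under 0.05.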

How the data were processed

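Per the submitters' processing notes, the tools were STAR and featureCounts on build mm10. Versions and annotation are not given in the sources used here. The authors deposited whole-number counts per gene and library, not normalized or pooled, and per the file headers the columns come from STAR alignments. Of 55487 identifiers, 55141 matched a GENCODE M21 symbol (GRCm38), which also gave coordinates. Here, genes were filtered with filterByExpr (13280 kept), scaled by TMM and tested with edgeR 4.0.16 (glmQLFit, glmQLFTest) in R 4.3.3. The model held the line, and p-values were two-sided and adjusted over all tested genes by Benjamini-Hochberg (threshold 0.05). The code was tested on simulated data. SEs were derived from the fold change and F. Log2 CPM used a prior count of 2. Alternatives were RLE factors, library size alone, no filter, DESeq2 1.42.0, limma-voom 3.58.1, the replicate number as a block, and each library left out. Libraries of a line differed beyond sampling noise (chi-square per degree of freedom 7.04 to 24.2 over 12 pairs). Depth was 3803561 to 6293907 counts. Intervals and floors (3 counts) cover counting error only, since no molecular identifiers are mentioned.

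The members and gene lists were chosen with earlier results of these data known. The genes named were the 10 members, Tbx1, the known partners Tbx5, Tbx20 and Isl1, up to 3 called genes of each list with the smallest p or else its nearest gene, 4 muscle genes, defining markers where a member's result moves with them, and the 3 nearest genes of Gata6, Hand2 and Nkx2-5. The relation to cardiomyocyte markers, the paralogue shares and Hand2os1 were added after the data were seen. One gene that the rule names among the partner factors is not reported here, though the counts over that list include it.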

Additional observations from a re-analysis of the deposited data

Results flagged for a closer look

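A library far from the other 3 of its line was sought in 114 groups of 4, where chance flags about 1 in 20 groups. The number of groups flagged was close to that rate. The groups come from the same libraries, so their flags are not independent. Mutant library 4 stood apart with low values in 5 of the groups. Its Nkx2-5 level was 0 CPM against 6.10 to 7.08 CPM in mutant libraries 1 to 3. Myl7 was 8.25 CPM against 127 to 142 CPM, Tnnt2 was 30.0 CPM against 113 to 119.9 CPM, and Nebl was 7.42 CPM against 17.3 to 18.7 CPM. The long noncoding RNA 5430431A17Rik was 0.825 CPM against 19.2 to 21.7 CPM. Mutant library 1 stood apart with a high sum of endothelial and blood markers, 1804 CPM against 1113 to 1229 CPM in the other 3 mutant libraries.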

How the results depend on the processing

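No log2 fold change of the 10 factors changed sign in 14 alternatives. The number of them called was 1, but 2 with library size alone and 3 each without the low-count filter, with DESeq2 and with limma-voom, and 1 whichever library was left out. Over all genes 188 were called (99 higher, 89 lower), with 439 without the filter, 399 with DESeq2 and 103 to 235 when 1 library was left out (103, 104 and 116 without parental library 2, parental library 3 and mutant library 3). Library size alone gave 100 higher and 57 lower. Partner factors had 2 called, 5 without the filter, 4 with DESeq2 and 1 to 5 with 1 library left out (1 without parental library 2 or 3 or mutant library 1, 5 without mutant library 4). Cardiac target genes had 0 called, 1 with RLE factors, 13 without the filter, 1 with DESeq2 and 0 to 5 with 1 library left out (1 without parental library 3, 5 without parental library 4). The cause was not tested. A fit with a replicate block called 234 genes, 172 of the 188 among them. It called 8 cardiac target genes and 6 cardiomyocyte markers, each of these lower. Over all tested genes, deviations of same-numbered libraries correlated at 0.102, 0.015, -0.033 and 0.028. Of the 8 libraries, 3 correlated best with their own number. Values over all genes cannot exclude pairing by number for single genes, and pairing was not tested for the members. The adjusted correlation of Nkx2-5 with cardiomyocyte markers passed in each of its 10 alternatives, but that of Gata5 was lost without mutant library 4 (r = 0.613), that of Gata4 passed without it (r = 0.880), and those of Mef2c, Mef2d and Smarcd3 were lost in 7, 5 and 4 of 10. Genes at a few CPM, such as Nkx2-5 and Tbx5, are limited by depth.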
